A study of Homo sapiens with 3 samples.

Results

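Nuclear receptor genes were followed through a map of EP300, an enzyme that acetylates histones and coactivates transcription, in naive human embryonic stem cells. The set held 46 listed genes in 7 subfamilies, out of 19970 protein-coding genes, and every peak that the authors' annotation assigned to a listed gene was taken. These were 185 of 65276 peaks in EP300 replicate 1 and 171 of 64896 peaks in replicate 2, and 42 of the 46 genes had a peak in at least 1 replicate.

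The cells were H9, an established human embryonic stem cell line, of wild-type genotype. They were kept naive in PXGL, that is N2B27 medium with inhibitors of MEK (PD0325901), tankyrase (XAV939) and protein kinase C (Gö 6983) and with human LIF at 10 ng/mL, over a layer of mouse embryonic fibroblasts. Chromatin was fixed with 1% formaldehyde for 10 min and sonicated, and chromatin immunoprecipitation with sequencing (ChIP-seq) was done with an antibody against EP300. There were 2 EP300 samples, both of this condition, and 1 input sample without antibody, which has no table and was not analysed here on its own. All groups shared the line, genotype and medium, so the design holds no contrast between conditions, and the values below describe occupancy with no test.

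Nuclear receptors are transcription factors that bind DNA through a zinc finger domain and, in most members, a small lipophilic ligand through a second domain. Ligand-bound receptors recruit p160 coactivators, which in turn bring in EP300 and its paralogue CREBBP to acetylate nearby histones, whereas unliganded thyroid hormone and retinoic acid receptors hold corepressors. The retinoid X receptors of subfamily NR2 form heterodimers with most ligand-bound members of subfamily NR1, while the steroid receptors of NR3 bind as homodimers. Retinoic acid drives pluripotent cells to differentiate, and ESRRB, NR5A2 and NR0B1 are known as parts of the mouse pluripotency network.

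Values are the authors' own signal value of a peak, taken here as its fold enrichment over input, given as replicate 1 and then replicate 2. A region is a group of peaks of both replicates that overlap by at least 1 bp and were assigned to 1 gene. A promoter region lies within 3 kb of the start site the authors annotated, in both replicates, and a distal region lies over 3 kb away. Each region was ranked by fold enrichment within the list of each replicate, and its percentile is the smaller of both ranks, so 99 is near the top of the list. The labels do not tie the 2 EP300 samples to separate cultures, and their spread may be technical. Read depth is unknown. The naive label was set against marker genes. Of these, 8 of 10 naive, 7 of 7 shared pluripotency, 6 of 6 primed and 4 of 6 fibroblast genes had a promoter region, beside 67.7% of all coding genes. Where present, the promoter regions of primed markers had a median percentile of 97.9 (85.8 to 99.2) and those of naive markers 63.4 (9.46 to 99.4). Shared pluripotency markers had 92.1 and fibroblast markers 91.4. The primed markers thus stood highest and the naive markers lowest beside the naive label. EP300 occupancy is not a measure of expression.

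EP300 was found at the promoter of most receptor genes. Of the 46 genes, 37 had a promoter region (80.4%, 95% Wilson interval 66.8% to 89.4%, counting error only), beside 67.7% of all coding genes. Counted by RefSeq 5′ end, whatever gene the authors assigned, the order turned, with 71.7% of receptor genes and 75.6% of the 18869 coding genes of known strand. More than 1 promoter region was found at 19 receptor genes (41.3%), beside 16.8% of coding genes. That share was 26.1% beside 7.25% with only peaks of a fold enrichment of at least 5, and 21.7% beside 12.5% by RefSeq 5′ end. A distal region was assigned to 16 receptor genes (34.8%, 22.7% to 49.2%), beside 20.4% of coding genes, and 5 or more distal regions to RXRA and ESRRB, beside 1.84% of coding genes. In all, the receptor genes held 80 promoter and 37 distal regions. Their leading promoter regions had a median percentile of 79.0, against 80.1 over all coding genes that had one.

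Gene length moved with these shares. The median receptor gene spanned 50.9 kb and the median coding gene 24.2 kb. Among genes longer than 50.9 kb, a promoter region was found at 82.6% of the receptor genes and 81.5% of coding genes, and a distal region at 43.5% and 32.6%. Among genes up to that length, the promoter shares were 78.3% and 61.5%, and the distal shares 26.1% and 15.0%. More than 1 promoter region was found at 39.1% of the longer receptor genes, against 22.5% of longer coding genes, and at 43.5% of the shorter ones, against 14.3%. By the authors' assignment, the share with several promoter regions was thus higher in both length classes. This share also depends on how many annotated starts a gene has, which was not taken into account. RefSeq start sites numbered 96 over 41 receptor genes and 22131 over 15811 coding genes.

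**Figure D1:**
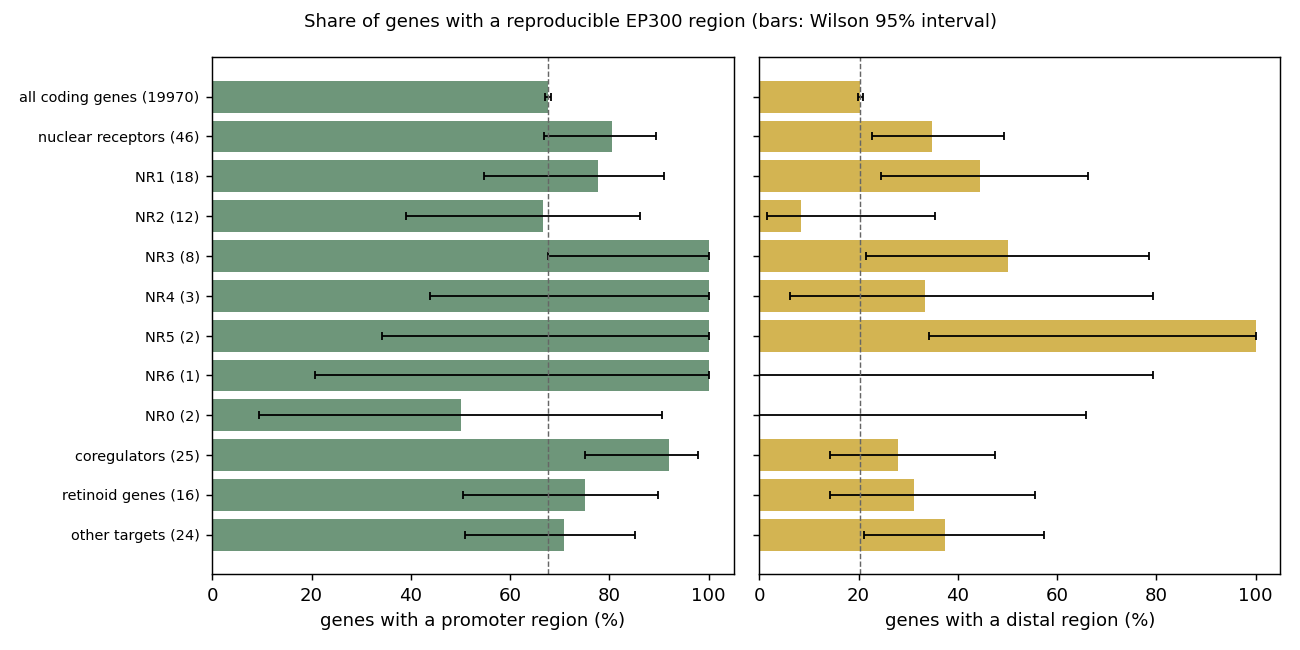
Share of genes (%) with a reproducible promoter region (left) and distal region (right) of EP300, for all coding genes, the 46 nuclear receptor genes, each subfamily and 3 lists of related genes; the number of genes is in parentheses, whiskers are Wilson 95% intervals and the dashed line is the share over all coding genes. The receptor genes stand at 80.4% and 34.8%, and the intervals of the small subfamilies span most of the axis.

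The sequence before the start sites is shown first, because it sets starts that lay in an EP300 region beside starts that did not. RefSeq start sites on GRCh38.p14 were available for 41 of the 46 genes (not for HNF4G, VDR, NR2F6, NR4A2 and NR0B2). The hexamer AGGTCA is the core that most receptors of NR1, NR2, NR4 and NR5 recognise. It was searched on both strands in the 300 bases around the most upstream of these available start sites (250 before, 50 after). Some genes begin further upstream in RefSeq, such as NR1H4, at position 100473866. The RefSeq 5′ end of RORA, at 61229302, lay in a region although the start site used for it did not. It was present in 7 of 41 receptor genes (17.1%) and in 11.8% of all coding genes. Of the 23 receptor genes whose start lay in an EP300 region 3 held it (13.0%), and of the 18 whose start lay outside 4 did (22.2%). A start outside is not a gene without EP300: 11 of these 18 genes, NR4A1 among them, had a promoter region at another annotated start or beside this one. The corresponding shares over all coding genes were 9.37% and 16.2%, so a start inside a region did not go with more matches in either set. Below are the 250 bases upstream of 5 starts, 5′ to 3′ on the gene's own strand, with AGGTCA or its reverse complement in capitals. The starts of NR0B1, RARA and NR1H3 lay in a region, and PPARG and NR1H4 had no promoter region at any start.
NR0B1, chrX:30309391-30309640, minus strand: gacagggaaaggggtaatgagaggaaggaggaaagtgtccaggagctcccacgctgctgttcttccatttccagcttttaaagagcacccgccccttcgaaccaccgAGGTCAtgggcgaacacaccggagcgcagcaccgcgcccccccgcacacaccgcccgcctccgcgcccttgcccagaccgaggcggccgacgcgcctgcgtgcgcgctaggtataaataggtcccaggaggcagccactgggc
RARA, chr17:40308930-40309179, plus strand: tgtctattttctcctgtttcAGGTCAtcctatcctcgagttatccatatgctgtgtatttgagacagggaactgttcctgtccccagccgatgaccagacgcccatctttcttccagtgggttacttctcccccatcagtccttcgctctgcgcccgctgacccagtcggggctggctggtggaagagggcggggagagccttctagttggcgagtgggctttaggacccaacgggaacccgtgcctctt
NR1H3, chr11:47248050-47248299, plus strand: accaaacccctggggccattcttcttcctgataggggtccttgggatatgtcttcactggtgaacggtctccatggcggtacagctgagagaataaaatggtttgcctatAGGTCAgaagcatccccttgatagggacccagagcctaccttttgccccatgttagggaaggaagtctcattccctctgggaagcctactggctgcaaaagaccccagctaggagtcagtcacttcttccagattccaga
PPARG, chr3:12287118-12287367, plus strand: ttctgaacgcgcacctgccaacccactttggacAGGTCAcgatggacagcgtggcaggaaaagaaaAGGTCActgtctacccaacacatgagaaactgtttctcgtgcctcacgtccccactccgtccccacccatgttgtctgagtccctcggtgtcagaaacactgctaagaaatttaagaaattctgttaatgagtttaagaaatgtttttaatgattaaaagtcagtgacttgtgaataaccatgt
NR1H4, chr12:100503110-100503359, plus strand: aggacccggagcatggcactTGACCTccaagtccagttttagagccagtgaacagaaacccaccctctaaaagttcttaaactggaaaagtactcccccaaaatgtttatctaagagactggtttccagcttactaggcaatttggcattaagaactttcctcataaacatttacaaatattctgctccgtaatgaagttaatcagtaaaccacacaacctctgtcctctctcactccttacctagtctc

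The PPARG window held the hexamer at 2 places in the same orientation, and the NR1H4 window held it on the opposite strand. The extended element TCAAGGTCA of the monomeric orphan receptors, and the direct repeats DR1, DR2, DR4 and DR5 of AGGTCA that heterodimers of the retinoid X receptors bind, were found in 0 of 41 windows. They were rare everywhere, with TCAAGGTCA in 0.234% and DR1 in 0.0190% of all coding gene windows. The hexamer AGAACA of the steroid receptors other than the oestrogen receptors was present in 6 of 41 receptor windows (14.6%) and in 11.2% of all. These are matches of letters and no measurement of binding.

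Base composition differed between the 2 classes of starts. The windows of the 23 starts inside a region had a median GC content of 66.3% and a CpG observed to expected ratio of 0.85, against 48.7% and 0.41 at the 18 outside. All coding genes gave 66.7% and 0.845 inside, and 51.7% and 0.306 outside, so the receptor genes followed the genome at large. The GC box GGGCGG is bound by SP and KLF factors. It was present in 73.9% of receptor windows whose start lay inside a region, and in 33.3% of those whose start lay outside. Over all coding genes the shares were 74.2% and 29.1%. Exceptions stood on both sides. The NR1H3 start lay in a region, and its window had a GC content of 50.3% and a CpG ratio of 0.105. The RXRA start lay outside one, and its window had 84.0% and 1.25. The RXRA start, at position 134326455 of chromosome 9, fell in the gap between 2 promoter regions. One of them ended at 134326349 and the other began at 134326529, so part of the RXRA window lay inside the first. The upstream sequences of ESR2 and PPARA, which had the second and the fourth highest promoter percentile of the receptor genes, show the GC boxes (capitals, both strands).
ESR2, chr14:64338614-64338863, minus strand: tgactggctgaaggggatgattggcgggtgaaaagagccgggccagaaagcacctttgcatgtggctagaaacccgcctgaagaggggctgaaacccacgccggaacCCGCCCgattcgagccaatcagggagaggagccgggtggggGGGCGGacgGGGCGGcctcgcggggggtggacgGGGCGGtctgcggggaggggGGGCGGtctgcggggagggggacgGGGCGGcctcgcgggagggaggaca
PPARA, chr22:46150276-46150525, plus strand: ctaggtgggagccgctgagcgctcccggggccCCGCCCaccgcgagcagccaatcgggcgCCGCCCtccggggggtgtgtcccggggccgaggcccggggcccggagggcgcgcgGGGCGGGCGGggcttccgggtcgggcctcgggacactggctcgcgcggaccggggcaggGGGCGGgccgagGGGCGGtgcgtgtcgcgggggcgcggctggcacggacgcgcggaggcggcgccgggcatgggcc

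ESR2 held 6 and PPARA 6 GC boxes in these 250 bases, and neither held AGGTCA.

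**Figure D2:**
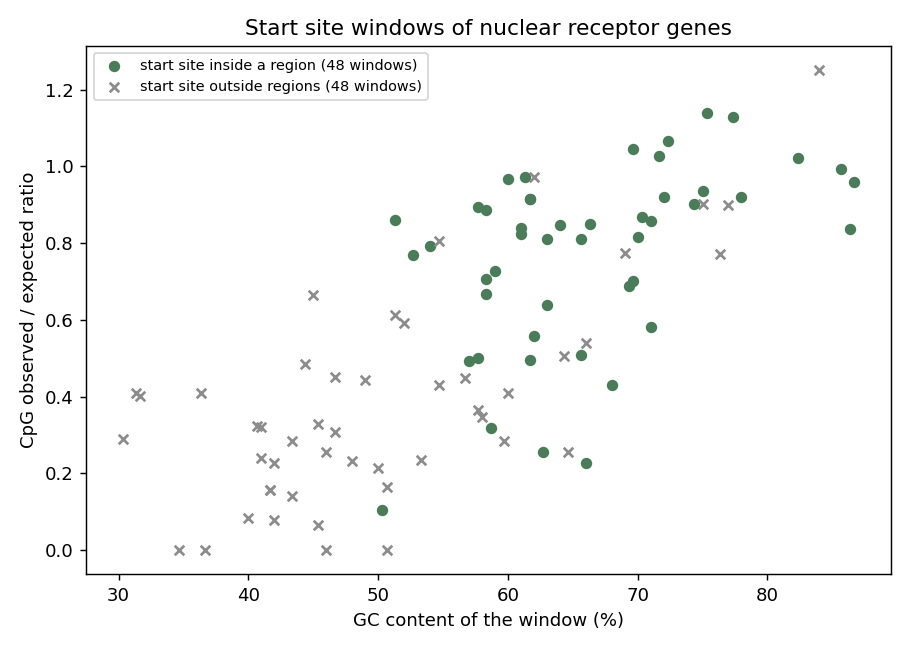
GC content (%) against the CpG observed to expected ratio for the 96 RefSeq start windows of 300 bases of 41 nuclear receptor genes; circles are the 48 windows whose start lay inside a reproducible EP300 region, crosses the 48 whose start lay outside. Windows inside a region lie mostly to the upper right, and several genes give more than 1 point.

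The highest promoter region of the set belonged to NR4A1, an orphan receptor and immediate early gene. It lay at chr12:52035880-52038118 (GRCh38), spanned 2239 bp and had a fold enrichment of 24.5 and 24.2 (percentile 99.6). NR4A1 had 4 further promoter regions and 1 distal region inside the gene, with fold enrichments of 3.83 to 8.42 in replicate 1 and 3.61 to 10.6 in replicate 2. The paralogue NR4A2, needed for dopamine neurons, had 3 promoter regions at 11.04 and 14.79, 12.5 and 10.9, and 7.84 and 10.6. NR4A3 had 3 at 7.18 and 11.1, 5.95 and 6.83, and 4.44 and 5.24. By the starts the authors annotated, all 3 NR4 genes thus had 3 or more promoter regions, and replicate 2 was the higher in 8 of the 11. More than 1 was found at 16.8% of all coding genes, and the share with 3 or more was not counted. A further region 1254 bp (replicate 1) and 1218 bp (replicate 2) from the NR4A3 RefSeq start was assigned to ENSG00000237461, at 13.6 and 15.5, above every region assigned to NR4A3. By RefSeq 5′ end, whatever gene the authors assigned, NR4A1 and NR4A2 had 2 promoter regions each and NR4A3 had 3.

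**Figure D3:**
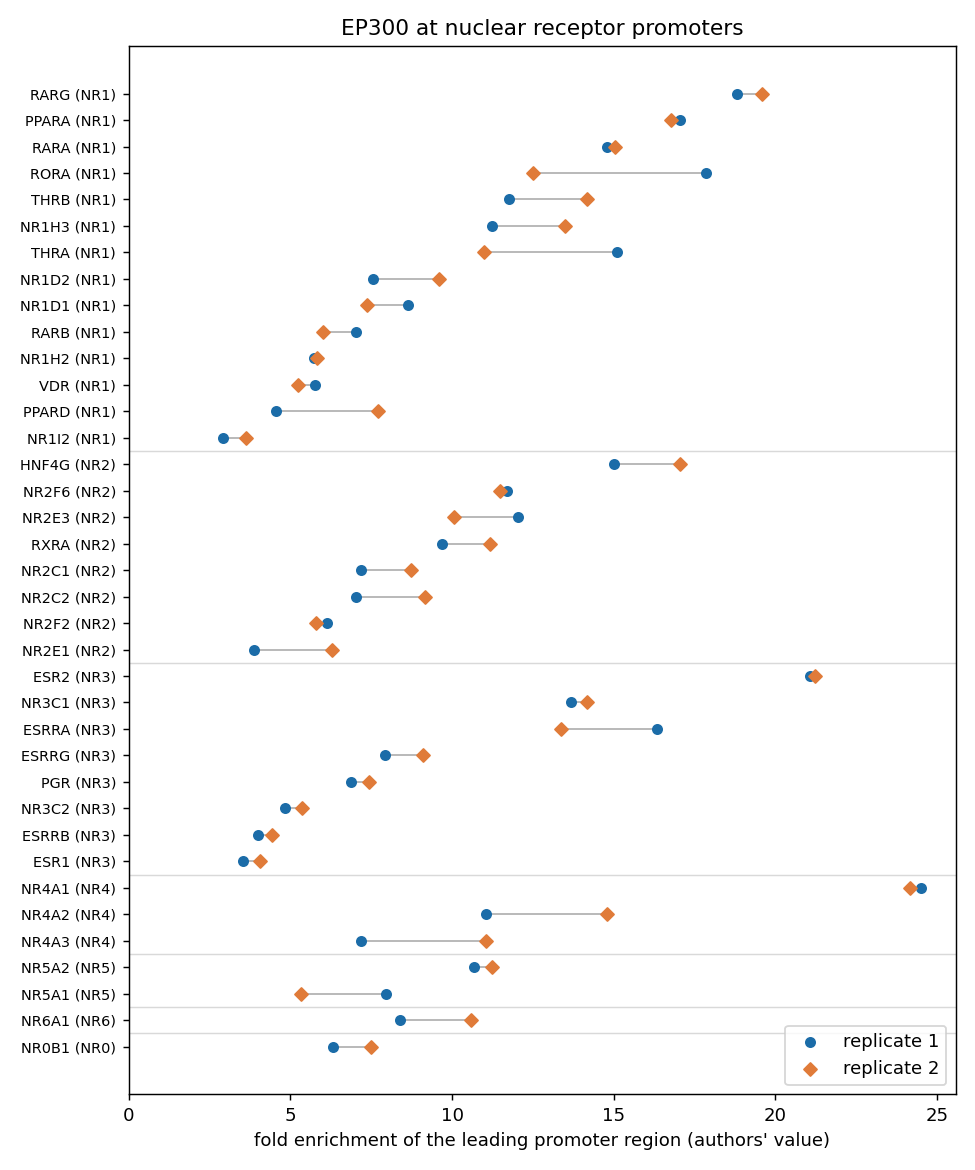
Fold enrichment over input (authors' value) of the leading EP300 promoter region of the 37 nuclear receptor genes that had one, by subfamily; circles are replicate 1, diamonds replicate 2 and the line joins the 2. NR4A1, ESR2 and RARG lie highest, NR1I2 and ESR1 lowest, and the replicates are furthest apart at RORA.

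Subfamily NR1 holds the thyroid hormone, retinoic acid, fatty acid, oxysterol, bile acid, vitamin D and xenobiotic receptors and the clock receptors. A promoter region was found at 14 of its 18 genes (77.8%), with a median percentile of 83.0. Among the retinoic acid receptors, RARG led with 18.8 and 19.6 at chr12:53230349-53232914 (percentile 98.4). It had 4 further promoter regions, of which the widest spanned 5988 bp at 9.17 and 12.6, and the others had 8.83 and 10.3, 7.02 and 3.86, and 6.70 and 5.42. Its 2 distal regions were low, at 3.14 and 3.65, and 2.73 and 2.78. RARA had 6 promoter regions, the most of any receptor gene, led by 14.8 and 15.0 at chr17:40344455-40346020. The next RARA region had 9.20 and 13.2, and the remaining 4 had 2.39 to 5.21 and 3.48 to 5.60. RARB, itself a well-known retinoic acid target, had 1 promoter region at 7.02 and 6.01, and 2 distal regions in its introns at 4.34 and 5.11, and 4.14 and 4.27. The 3 retinoic acid receptors were thus ordered RARG, RARA, RARB in both replicates.

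The thyroid hormone receptor genes both had a promoter region. THRA had 5, led by 15.1 and 11 at its 5′ end, followed by 8.34 and 6.50, 5.15 and 5.06, 4.57 and 3.03, and 3.53 and 2.83. THRB had 1 at 11.8 and 14.2, so their order differed between replicates. Among the fatty acid receptors, PPARA stood at 17.1 and 16.8 (chr22:46149202-46151534, percentile 97.0) and PPARD at 4.55 and 7.72. PPARA also had 3 distal regions, at 4.97 and 6.26, 5.10 and 3.90, and 4.38 and 3.98, all far below its promoter region. PPARG, the regulator of fat cell formation, had none that the replicates shared. Its peaks near a start were 1 in replicate 1 at 3.10 and 2 in replicate 2 at 2.73 and 2.48, and none of them overlapped. Replicate 2 also had 2 intergenic peaks downstream of PPARG, 16189 and 19882 bp from the nearest start, at 4.17 and 4.92.

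Of the clock receptors, NR1D1 and NR1D2 repress the clock genes that RORA activates. NR1D1 had a promoter region of 5754 bp at 8.62 and 7.36, and NR1D2 one at 7.56 and 9.58. The strongest distal region of the whole set lay upstream of the NR1D1 start, at -5928 bp in replicate 1 and -5382 bp in replicate 2. It was between genes, at chr17:40105971-40109604, with 17.9 and 20.8 (percentile 98.0). It was over 2 times as high as the NR1D1 promoter region in both replicates. RORA had a promoter region at 17.9 and 12.5 and another at 3.13 and 3.02. RORB had no peak assigned to it, but a region 394 and 340 bp from its RefSeq start, at 9.67 and 8.06, was assigned to the antisense gene RORB-AS1.

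The liver and intestinal sensors of NR1 ranged widely. The oxysterol receptor gene NR1H3 had 4 promoter regions at 11.2 and 13.5, 7.36 and 6.46, 4.97 and 5.74, and 3.10 and 3.81. These went by starts the authors annotated. The summit of the highest lay 21.8 kb downstream of the RefSeq 5′ end in both replicates, past the 3′ end of the gene. Only the region at 7.36 and 6.46 (percentile 70.6) lay within 3 kb of that 5′ end. The paralogue NR1H2 had 1 promoter region at 5.72 and 5.83. VDR, for the vitamin D receptor, had 1 at 5.76 and 5.24, by a start the authors annotated. Its summit lay at -37.1 kb (replicate 1) and -36.8 kb (replicate 2) from the RefSeq 5′ end, that is upstream of it. A region within 3 kb of that 5′ end (percentile 77.1) was assigned to another gene. NR1I2, for the xenobiotic receptor PXR, had the lowest leading promoter region of the set at 2.92 and 3.63 (percentile 9.88). NR1I3, for the related receptor CAR, had a promoter peak at 4.09 in replicate 1 and no peak in replicate 2. NR1H4, for the bile acid receptor FXR, had no assigned peak in either replicate. NR1I2, NR1D2, RORA and VDR each had 1 distal region, at 2.94 to 4.85 in replicate 1 and 3.28 to 4.79 in replicate 2, and that of NR1I2 was above its promoter region in both.

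Subfamily NR2 had a promoter region at 8 of 12 genes (66.7%), with a median percentile of 80.6. HNF4G, for a receptor of gut epithelium, led with 15.0 and 17.0 and a second region at 6.74 and 5.42, whereas HNF4A had 1 peak, at 2.73 in replicate 1. The orphan receptor gene NR2F6 stood at 11.7 and 11.5 over 5177 bp. NR2E3, a photoreceptor regulator, had 12.04 and 10.05 and a second region at 3.80 and 5.26. NR2C1 stood at 7.17 and 8.72, and its paralogue NR2C2 at 7.02 and 9.17 with a second at 3.63 and 2.86. NR2F2, a mesoderm and vessel regulator, had 6.14 and 5.79, and 5.99 and 4.58. NR2E1, a neural stem cell factor, had 3.88 and 6.29. NR2F1 had no assigned peak, and the only peak within 3 kb of its start was 2749 bp away in replicate 1, at 3.07, assigned to NR2F1-AS1.

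The retinoid X receptors differed from one another. RXRA had 4 promoter regions, led by 9.67 and 11.2 at chr9:134326529-134327472, then 7.64 and 5.87, 3.71 and 4.09, and 2.14 and 2.57. RXRG had a promoter peak at 3.91 in replicate 2 and a distal one at 3.32 in replicate 1, which did not overlap. RXRB had no assigned peak. Its RefSeq start was covered in replicate 1 by a peak at 6.40, and peaks at 8.24 and 4.99 lay over or beside it in replicate 2, all assigned to the neighbouring zinc transporter gene SLC39A7. Counting any region within 3 kb of a RefSeq 5′ end, whatever its assigned gene, gave RXRB and RORB a promoter region each and took the count for the set to 33, since regions at internal starts were then left out.

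RXRA also held all 10 distal regions of NR2. The highest, at chr9:134405348-134409373, spanned 4026 bp over an exon of RXRA and had 8.86 and 10.0, close to the promoter region. The other 9 were low, at 2.78 to 4.49 in replicate 1 and 2.50 to 4.32 in replicate 2, and 8 of them lay in RXRA introns. Each replicate had 32 peaks assigned to RXRA, so most of its peaks outside the start and this exon were weak or seen in 1 replicate. With only peaks of a fold enrichment of at least 5, NR2 had 1 distal region.

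**Figure D4:**
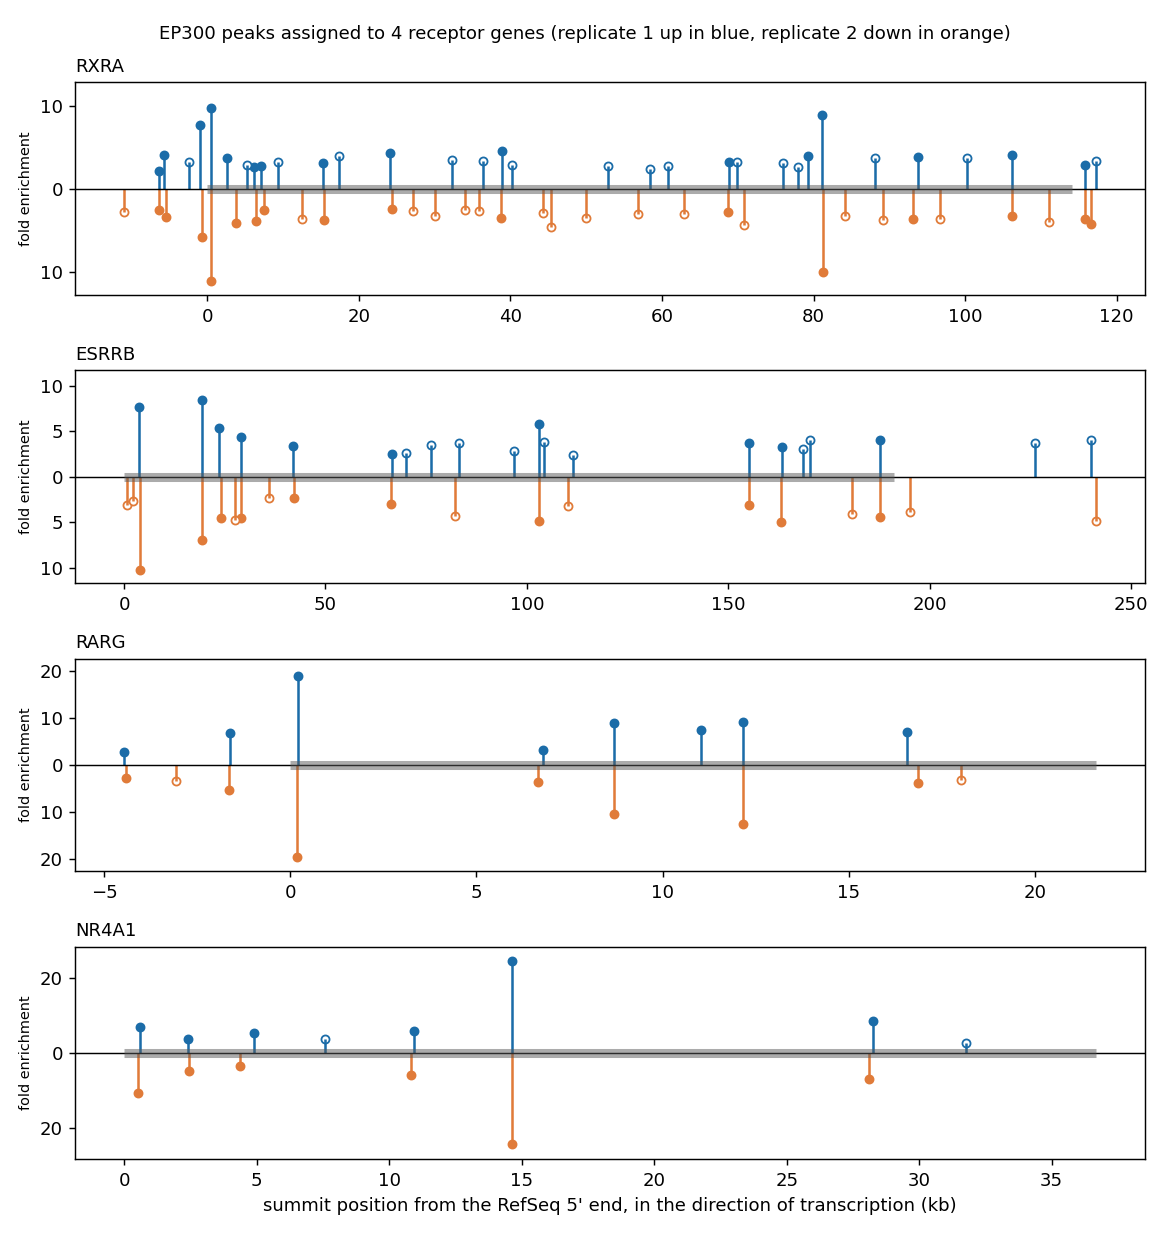
EP300 peaks assigned to RXRA, ESRRB, RARG and NR4A1 by distance of the summit from the RefSeq 5′ end (kb, in the direction of transcription); replicate 1 is drawn upward in blue and replicate 2 downward in orange, height is fold enrichment, filled points are peaks in a region of both replicates, open points are not, and the grey bar is the gene. RXRA and ESRRB show many low peaks along the gene, and NR4A1 and RARG a few high ones.

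Subfamily NR3, the steroid and oestrogen-related receptors, had a promoter region at 8 of 8 genes (Wilson interval 67.6% to 100%), beside 67.7% of all coding genes. Their range was wide, with a median percentile of 76.4. With only peaks of a fold enrichment of at least 5, the count was 5, without ESR1, ESRRB and NR3C2. By RefSeq 5′ end it was also 5, without ESR1, ESRRB and NR3C1. ESR2, for oestrogen receptor beta, led with 21.1 and 21.2 at chr14:64337848-64340147 (percentile 99.0) and had a second region at 9.26 and 10.5. ESR1, for oestrogen receptor alpha, had 3.53 and 4.05 (percentile 26.3). The leading promoter region of ESR2 was thus over 5 times as high as that of ESR1 in both replicates. The distal regions of ESR1, at 7.15 and 6.61 in an intron and 5.50 and 5.75 upstream, stood above its own promoter region. NR3C1, for the glucocorticoid receptor, had 13.7 and 14.2 over 3347 bp. NR3C2, for the mineralocorticoid receptor, had promoter regions at 9.81 and 4.19, and 4.82 and 5.36, and an intron region 44.4 kb from the start at 13.3 and 13.5 (percentile 93.6). The progesterone receptor gene PGR had 6.87 and 7.44.

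The oestrogen-related receptors, which have no known natural hormone and regulate energy metabolism, showed 3 patterns. ESRRA had 1 promoter region at 16.3 and 13.4 and no distal region. ESRRG had 5 promoter regions, led by 7.91 and 9.09, with the others at 7.26 and 8.29, 6.32 and 7.33, 6.31 and 5.20, and 3.36 and 3.38. Its 1 distal region, at chr1:216600371-216601588 in an ESRRG intron, lay 113.7 kb from the nearest annotated start and was higher than all of them at 15.0 and 13.9. ESRRB had low promoter regions at 4.01 and 4.42 (percentile 39.8) and 2.50 and 3.02, and 8 distal regions, all in its introns. Both promoter regions went by internal starts the authors annotated. In replicate 1 their summits lay 187.6 and 66.4 kb downstream of the RefSeq 5′ end. No region of both replicates lay within 3 kb of that 5′ end. The 2 highest distal regions had 7.63 and 10.2 at chr14:76314097-76315723, 3.43 kb from the nearest annotated start, and 8.42 and 7.02 at chr14:76328142-76331156. The other 6 had 3.26 to 5.78 and 2.35 to 4.96.

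Subfamily NR5 holds NR5A1, a regulator of steroid hormone synthesis, and NR5A2, its paralogue in the early embryo and liver. NR5A2 had 4 promoter regions at 10.7 and 11.2, 6.53 and 7.97, 5.41 and 5.67, and 4.91 and 5.63. A distal region of 3859 bp lay between its annotated starts at 10.5 and 10.7, level with its leading promoter region. NR5A1 had promoter regions at 7.96 and 5.32, and 4.20 and 3.46, and a higher intron region at 7.95 and 11.04, equal to the promoter in replicate 1 and above it in replicate 2. NR6A1, a repressor of POU5F1 during differentiation, had 1 promoter region at 8.38 and 10.6. Of the NR0 genes, whose products lack a DNA-binding domain, NR0B1 had 6.31 and 7.48 and NR0B2 a peak of 2.44 in replicate 2 alone.

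**Figure D5:**
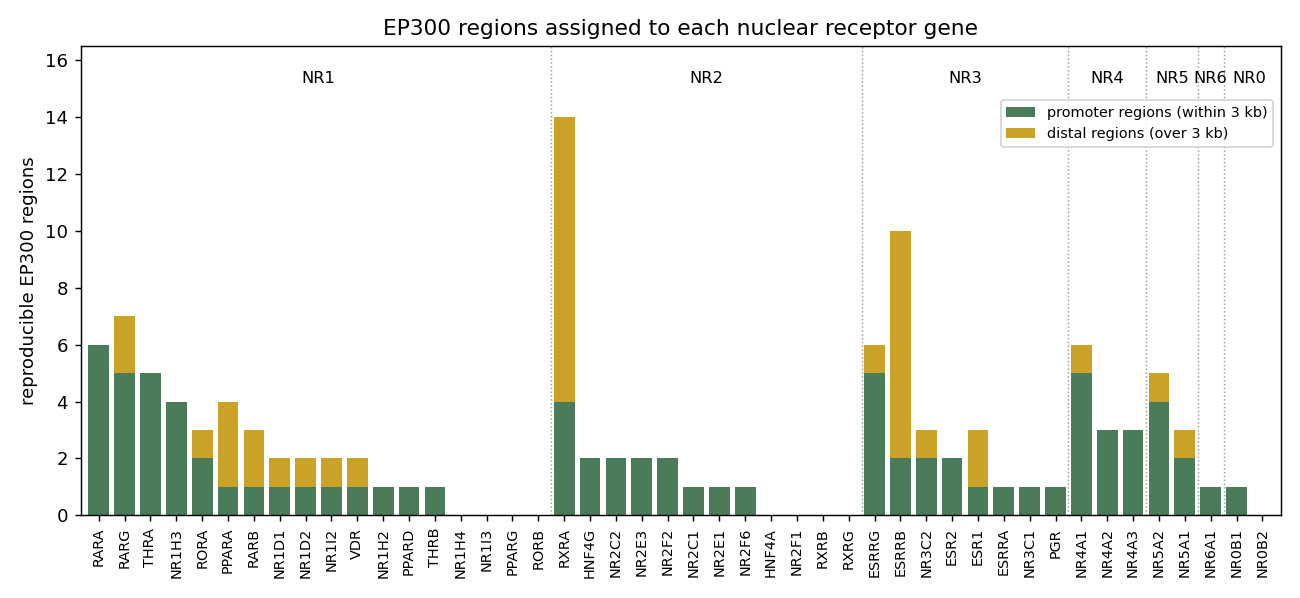
Number of reproducible EP300 regions assigned to each of the 46 nuclear receptor genes, by subfamily; green is promoter regions (within 3 kb of an annotated start) and gold distal regions (over 3 kb). RXRA with 10 and ESRRB with 8 distal regions stand apart, RARA has the most promoter regions at 6, and 9 genes have none of either kind.

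Read across subfamilies, NR1 held 31 promoter and 12 distal regions, the latter over 8 genes. NR2 held 15 promoter regions and 10 distal ones, all of RXRA, so 1 of 12 NR2 genes had a distal region (8.33%, 1.49% to 35.4%), against 8 of 18 in NR1 (44.4%, 24.6% to 66.3%) and 4 of 8 in NR3 (50%, 21.5% to 78.5%). NR3 held 15 and 12, NR4 11 and 1, NR5 6 and 2, and NR6 and NR0 1 promoter region each. These intervals overlap, and no difference between subfamilies was tested.

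The 37 distal regions were placed relative to the gene the authors assigned, and the places of all distal regions were not counted. Of them 26 were in an intron of the receptor gene itself, 8 between genes, 2 in an intron of another gene and 1 over an exon. Their median distance to the nearest annotated start of the gene was 15.1 kb (3.34 to 113.7 kb). They were lower than the promoter regions, with a median percentile of 35.8 against 67.6. The same held over all regions, whatever gene they were assigned to, at 42.1 against 69.5. Of the distal receptor peaks, 50.6% in replicate 1 and 55.6% in replicate 2 overlapped a peak of the other replicate, beside 65.3% and 64.9% of all distal peaks. For promoter peaks the shares were 82.1% and 80.8%, beside 82.9% and 82.3%. Distal counts rest on these weaker peaks: with only peaks of a fold enrichment of at least 5, 10 distal regions in 8 genes were left, and the share of coding genes with one fell to 9.89%.

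The authors assigned each peak to 1 gene, which matters in crowded loci. Of 121 regions inside the RefSeq extents of the receptor genes, 99 were assigned to the receptor gene and 22 to another gene, in 11 receptor genes. RORA had 13 regions within its extent, of which 10 were assigned to unnamed genes inside it. By RefSeq start, 27 of 41 receptor genes (65.9%) had a start inside a region, beside 68.3% of coding genes. This share was below that of all coding genes, whereas the share by the authors' assignment was above it; the 2 counts use different start sites and windows.

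The proteins that work with the receptors were taken as 3 lists of other genes. Of 25 coregulator genes, 23 had a promoter region (92.0%, 75.0% to 97.8%), beside 67.7% of all coding genes. Among the highest were PRMT1, an arginine methyltransferase, at 19.7 and 25.2, TBL1XR1, a subunit of a corepressor complex, at 20.2 and 19.7, and the coactivator NCOA6 at 17.5 and 18.5. EP300 itself had 12.5 and 13.6, and CREBBP 11.3 and 10.4. HDAC3, a histone deacetylase, and PPARGC1A, a coactivator of mitochondrial genes, had no promoter region.

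Of 16 genes of retinoid metabolism and response, 12 had a promoter region (75.0%, 50.5% to 89.8%), an interval that holds the 67.7% of all coding genes. Among the highest were the retinoic acid carrier CRABP2 at 17.5 and 17.7, the retinoic acid hydroxylase CYP26B1 at 15.9 and 16.8, and the retinol dehydrogenase RDH10 at 17.2 and 15.6. CYP26B1 also had 5 distal regions. Genes without one included ALDH1A1, CYP26C1 and STRA8. Of 24 targets of other receptors, 17 had a promoter region (70.8%, 50.8% to 85.1%), near the 67.7% of all coding genes. FKBP5, a glucocorticoid target, stood highest at 35.8 and 28.7 (percentile 99.9), followed by the lipid droplet gene PLIN2 at 17.3 and 22.4, the lipogenic factor SREBF1 at 21.4 and 16.7, and FGF19, a bile acid target, at 14.5 and 16.4. Genes without one included BMAL1, CYP3A4, CYP7A1, DIO1, PDK4 and THRSP.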

How the data were processed

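Peaks of 2 EP300 ChIP-seq samples of naive H9 cells were used; the input sample has no table and was not analysed here on its own. The submitters' processing notes name fastp 0.19.11 and the build GRCh38. Which aligner and peak caller were used, with what threshold, and how duplicates were handled is not given in the sources used here. Per the table names ChIPseeker annotated the peaks, and with 1 table a sample the peaks were called per sample.

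Per the file headers, each deposited row is a summit with a signal value. It was taken here as the fold enrichment (a ratio) over input that the authors' caller gave. The -log10 values of p and q stand beside it, per the file headers, and the largest q of a joined peak was 0.0497 and 0.0496. The tables used here hold no read counts, so depth and the precision it gives are unknown, and Wilson 95% intervals cover counting error only.

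Here, rows of equal interval were joined with the highest fold enrichment (240 of 81061 and 231 of 80208 rows belonged to receptor genes). Chromosomes 1 to 22 and X were used. Peaks of both replicates that overlapped by at least 1 bp and were assigned to the same gene formed a region. Gene names were matched to RefSeq GRCh38.p14 by symbol or older symbol; 15443 of 19970 coding genes matched, and the other 4527 were counted as having no region. Upstream sequences are from RefSeq (GRCh38.p14). The region code was checked on simulated peaks. Python 3.11.15, pandas 2.3.3 and scipy 1.17.1 were used.

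The receptor genes and the lists were chosen with earlier results of these data known. Every receptor gene is accounted for. Values per replicate are given for the 12 genes with the highest promoter percentile, those without a promoter region, the 6 with most distal regions, those with 2 or more promoter regions, and within subfamilies; of each list, the 4 highest promoter regions and the genes without one are named, except some genes that are not reported here, and EP300 and CREBBP were added after their values were seen. Alternatives were another overlap, limits on fold enrichment and q, other windows, RefSeq gene extents in place of the authors' assignment, and each replicate alone.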

Additional observations from a re-analysis of the deposited data

How the results depend on the processing

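No paired analysis was possible because the EP300 and input samples share fewer than 2 replicate numbers, the input has no table and no result comes from a test. Of 192 alternative values for the counts, shares and medians, 149 stayed within 1.5 times the reported count (or 1 SD of the reported median) and 43 moved; of 368 promoter counts of single genes, 346 stayed present or absent as reported. The number of receptor genes with a promoter region was 31 to 40 over the 8 alternatives, and 28 genes had one under all of them, while the share of coding genes was 55.0% to 75.6%. The receptor share was above that of coding genes under 7 alternatives and below it by RefSeq gene extent (71.7% against 75.6%). Distal counts moved most. With a fold enrichment of at least 5, 8 genes had 10 distal regions (NR1 1, NR2 1, NR3 6, NR4 0), 9.89% of coding genes had one, 12 receptor genes (26.1%, beside 7.25% of coding genes) had 2 or more promoter regions, 5 NR3 genes had a promoter region, and the median percentile was 86.0. With a -log10 q of at least 5, 10 genes had 17 distal regions (NR1 5, NR2 1, NR4 0). With promoters within 1 kb and distal regions over 10 kb, 10 genes had 23 distal regions (NR1 7, NR2 6, NR4 0, NR5 1), 12.3% of coding genes had one and the median percentile was 75.9. By RefSeq gene extent, a region counted as distal if it lay in the gene body over 3 kb from the 5′ end. Regions at internal starts were thus included and those outside the gene left out, so this is another measure. By it, 26 genes (56.5%, beside 29.2% of coding genes) had 82 such regions (NR1 37, NR4 5, NR5 8, NR6 1). By the same extents, 10 genes (21.7%, beside 12.5%) had 2 or more promoter regions and 5 NR3 genes had a promoter region. With 1 replicate left out, distal regions numbered 72 to 79 (NR2 25 to 27, NR3 21 to 27, NR4 1 to 2, NR5 4 to 7, NR6 0 to 1), the median percentile was 80.2 to 83.9 and 1 to 2 NR0 genes had a promoter region; a single list keeps the peaks that the other lacks. Beyond these constructions the cause was not tested. Peak lists without read counts cannot show whether a weak peak missing from 1 replicate reflects depth.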
